A study of Mus musculus with 6 samples.

Results

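NRF2, encoded by Nfe2l2, is the transcription factor that switches on antioxidant and detoxification genes. In resting cells KEAP1 binds NRF2 and hands it to a ubiquitin ligase for destruction, and oxidants or electrophiles that modify KEAP1 let NRF2 reach the nucleus, where it pairs with small MAF proteins on antioxidant response elements (AREs). Its targets make glutathione, reduce thioredoxin and peroxiredoxins, detoxify quinones, break down heme and supply NADPH, and the pathway is well known in the liver for its response to drugs, fat and oxidative injury. NRF2 activity is set mainly by the amount of its protein, which RNA sequencing does not measure.

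The values of 10 genes of this pathway were examined, namely Nfe2l2, Keap1, Nqo1, Hmox1, Gclc, Gclm, Srxn1, Txnrd1, Slc7a11 and G6pdx. They were taken by gene symbol from a table of 17460 rows, and all 10 were found in it and passed the filter on low values. Liver mRNA was sequenced from C57BL/6 mice aged 9 months that had been fed the NASH diet (fructose, trans fats and cholesterol) for 24 weeks, 3 control and 3 with liver-specific inactivation of the long noncoding RNA Blnc1 (LKO). LKO mice are Cas9 transgenic mice that received, by tail vein, an adenovirus carrying a pair of sgRNAs against Blnc1. Such an adenovirus enters hepatocytes well and other liver cells poorly, so cells other than hepatocytes can retain Blnc1. In hepatocytes too, the deletion that the paper reported was large but not complete. The labels describe the other group only as control (columns named WT), so its Cas9 genotype and its virus are not given. In a high-fat diet experiment, the study's controls were Cas9 transgenic mice that received a GFP adenovirus. No chow-fed liver was among the 6, so the response of these genes to the diet itself cannot be seen here.

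Values are the authors' normalized read counts, in which the reads of a gene are scaled by the depth (size factor) of its liver. Reads on the listed genes ranged from 65384969 to 89350181 per liver. Within a group, every pair of livers differed beyond sampling of reads. Chi-square per degree of freedom was 20.8 to 32.3 for pairs of control livers and 43.8 to 70.0 for pairs of LKO livers. It was 70.0 and 63.3 for the pairs with LKO replicate 1, and 43.8 for the remaining LKO pair. The labels number the livers and do not state that each came from a separate mouse, and p-values therefore describe the spread between these 6 libraries. The 8 hepatocyte markers took 7.22% to 8.32% of all values in a liver, and each was detected in all 6 livers. Of these, Serpina1c, Fgb and Tat had the smallest p, with log2 differences of 0.38, 0.19 and −0.19 (adjusted p of at least 0.860, limma). Blnc1 has no row of its own in the values used here. Paqr9, the adjacent gene, was at 16972 ± 1827 (SD, n = 3) in control and 17986 ± 2196 (SD, n = 3) in LKO livers, which does not check the loss of Blnc1. The sum of 5 neutrophil markers was 4578 in LKO replicate 3, 4.73 times the highest of the other 5 livers, and that liver is given separately where it matters.

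The letters that NRF2 recognises were looked for next to the start of each gene, because they link the transcription factor to its targets. RefSeq promoter sequences (GRCm38.p6, from 250 bases before to 50 bases after a transcription start) were held for 8 of the 10 genes, in 10 windows, and the ARE core TGACNNNGC was searched on both strands. It was found in 5 windows, those of Nfe2l2, Gclm, Srxn1, Txnrd1 and G6pdx, and in 12.4% of all 32851 promoter windows. It was also found in 22.4% of the 107 windows of the other genes, in 8 lists, described further on. The windows of Keap1, Nqo1 and Slc7a11 held no match, and Gclc and Hmox1 had no window. Sequence outside these windows was not searched, so a gene without a match here can still have an ARE. The matches are shown 5′ to 3′ on the strand that reads TGACNNNGC, with the match in capitals and up to 10 bases on either side.
Nfe2l2 (chr2:75704885-75704913, − strand, 240 bases before the start): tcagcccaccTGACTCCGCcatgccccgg
Gclm (chr3:122245413-122245441, − strand, 134 bases before the start): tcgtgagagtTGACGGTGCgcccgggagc
Txnrd1 (chr10:82859104-82859132, − strand, 92 bases before the start of one of its 3 listed promoters): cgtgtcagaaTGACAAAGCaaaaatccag
G6pdx (chrX:74428919-74428947, + strand, 57 bases before the start): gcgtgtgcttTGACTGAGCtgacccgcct
Srxn1 (chr2:152105542-152105570, − strand, within the first bases transcribed): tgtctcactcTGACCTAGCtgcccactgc

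Slc7a11 is also a target of ATF4, the transcription factor of the amino acid and stress response, which binds a core that can be written TGATGNAA. This core was found in 3.97% of all promoter windows and, among the windows of the 10 genes, in that of Slc7a11 alone. It was present there on both strands, at 66 and 47 bases before the start.
Slc7a11, same strand as the gene (chr3:50443662-50443689, − strand): ctcatgtggcTGATGCAAacctggagaa
Slc7a11, opposite strand (chr3:50443643-50443670, + strand): ggctgcatgaTGATGCAAattctccagg
The capitals again mark the match. A match describes these letters only, and binding by either factor was not measured.

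In livers after 24 weeks of the NASH diet, levels of most of these genes were close between control and LKO. For 7 of the 10 genes the group means differed by less than 10%, the widest of these being 9.16% for Srxn1. Hmox1 had a mean 48.8% higher in LKO, and Slc7a11 and Nqo1 had means 25.7% and 10.8% lower. None of the 10 passed an adjusted p of 0.05 (limma, adjusted p from 0.831 to 0.993 over 17297 genes), where 0.00578% of all genes did, and the count was also 0 with edgeR and with DESeq2. At an unadjusted p under 0.05 there was 1 of the 10, Hmox1 (limma, edgeR and DESeq2 alike), against 5.68% of all genes. Control and LKO livers did not overlap for 3 of the 10 genes (30.0%), against 10.6% of all genes. Of these, Nfe2l2 and Slc7a11 were lower in LKO, as were 5.28% of all genes, and Hmox1 was higher, as were 5.35% of all genes. With only 10 genes, of which several share a regulator, these counts are descriptions. The log2 difference was negative for 8 of the 10 genes and for 50.4% of all genes, and its median was −0.047 over the 10 and −0.001 over all genes.

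**Figure D1:**
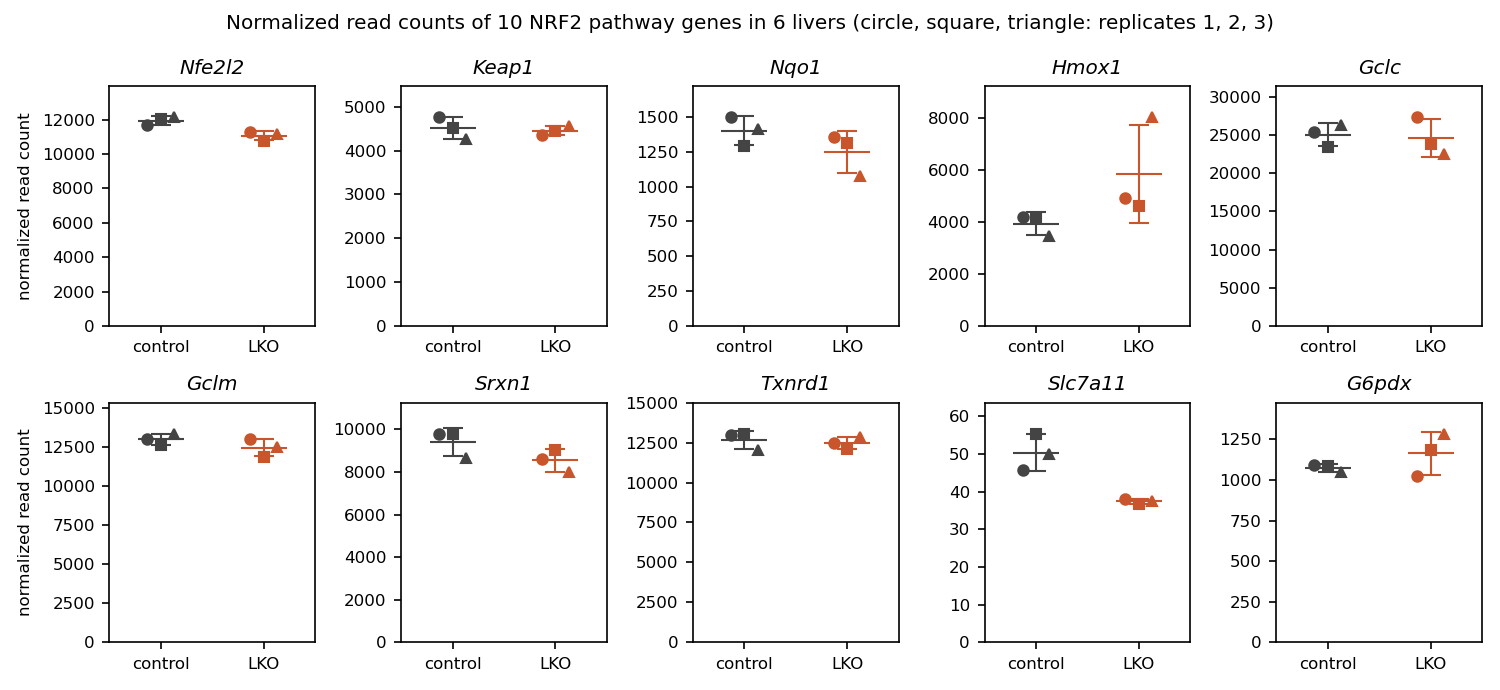
Normalized read count (vertical axes, starting at 0) of the 10 genes in each control and LKO liver, with circle, square and triangle for replicates 1, 2 and 3, a long bar for the group mean and short bars for 1 SD (n = 3). The groups do not overlap for Nfe2l2, Hmox1 and Slc7a11, and the Hmox1 value of LKO replicate 3 (8018) stands well above the other 5 livers.

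**Figure D2:**
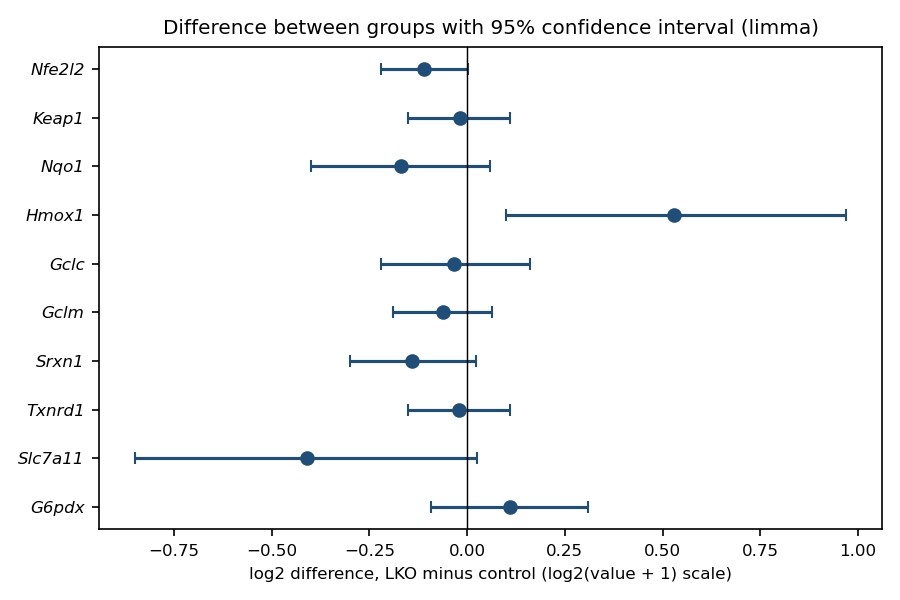
Log2 difference between LKO and control on the log2(value + 1) scale (horizontal axis) for each gene, with the 95% confidence interval from limma. The interval for Hmox1, from 0.10 to 0.97, lies above 0 before adjustment, and the intervals of the other 9 genes include 0.

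Among the regulators, Nfe2l2 lies on chromosome 2 (GRCm38, 75675513 to 75704641, − strand, ENSMUSG00000015839.6) and is a protein-coding gene of 6 exon blocks. Its normalized read counts were 11680, 12029 and 12137 in control and 11269, 10763 and 11182 in LKO livers. Every LKO liver was below every control liver, but the step between the lowest control and the highest LKO value was small. The mean was 11949 ± 239 in control and 11071 ± 271 in LKO livers (SD, n = 3 each). This gives a log2 difference of −0.11 (standard error 0.050, 95% confidence interval −0.22 to 0.0031, adjusted p = 0.880, limma). Counting error was up to 1.03% of the value in a liver, and the exact Poisson 95% intervals of control replicate 1 (11476 to 11886) and LKO replicate 1 (11043 to 11498), the closest livers of the 2 groups, overlapped. NRF2 can raise its own gene, so Nfe2l2 encodes a regulator and is also a possible target in this pathway. Its promoter window holds an ARE core, as do 12.4% of all windows, and binding there was not measured.

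Keap1, on chromosome 9 (21229730 to 21239361, − strand), encodes the sensor that holds NRF2 in check. Its values were 4762, 4509 and 4274 in control and 4364, 4438 and 4562 in LKO livers. The LKO values lay within the range of the controls, at means of 4515 ± 244 and 4455 ± 100 (SD, n = 3 each). The log2 difference was −0.018 (95% confidence interval −0.15 to 0.11, adjusted p = 0.993, limma). An antisense gene, Gm16754, shares 10.9% of the exon bases of Keap1, and the library kit does not mark strand, so reads from the pair cannot be told apart.

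The ratio of Nfe2l2 to Keap1 within a liver does not depend on the scaling between livers. It was 2.45, 2.67 and 2.84 in control and 2.58, 2.42 and 2.45 in LKO livers. The groups overlapped, with a log2 difference of −0.09 (exact permutation test, two-sided, n = 3 each, p = 0.2, adjusted p = 0.4 over 6 ratios). The smallest p that 3 livers against 3 allow is 0.1, so none of the 6 ratios could pass 0.05.

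Glutathione synthesis begins with glutamate-cysteine ligase, made of a catalytic subunit, Gclc, and a modifier subunit, Gclm. Gclc (chromosome 9, 77754535 to 77794485, + strand) had the highest values of the 10 genes, at 25443, 23462 and 26279 in control and 27316, 23826 and 22524 in LKO livers. The highest and the lowest value were both from LKO livers. The means were 25061 ± 1447 and 24555 ± 2478 (SD, n = 3 each), a log2 difference of −0.033 (95% confidence interval −0.22 to 0.16, adjusted p = 0.989, limma). Without LKO replicate 3 this difference was 0.027, so its direction was not settled.

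Gclm (chromosome 3, 122245557 to 122270732, + strand) had values of 13020, 12634 and 13342 in control and 12987, 11875 and 12508 in LKO livers. All 3 LKO livers were below the control mean, and the groups overlapped. The means of 12999 ± 354 and 12457 ± 558 (SD, n = 3 each) gave a log2 difference of −0.062 (95% confidence interval −0.19 to 0.064, adjusted p = 0.973, limma). The ratio of Gclc to Gclm was 1.95, 1.86 and 1.97 in control and 2.10, 2.01 and 1.80 in LKO livers (log2 difference 0.03, exact permutation p = 0.8). The LKO range enclosed the control range. Gm6061 and the antisense Gm17494 share 3.9% and 4.7% of the exon bases of Gclm.

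Slc7a11 encodes the cystine carrier xCT, which brings in the cystine that becomes the cysteine of glutathione, and hepatocytes are known to express little of it. It lies on chromosome 3 (49892526 to 50443614, − strand). Its normalized read counts were 45.7, 55.4 and 50.1 in control and 38.1, 36.6 and 37.6 in LKO livers. The LKO livers were close to each other and all below the controls. The mean was 50.4 ± 4.87 in control and 37.4 ± 0.732 in LKO livers (SD, n = 3 each), a log2 difference of −0.41 (standard error 0.19, 95% confidence interval −0.85 to 0.025, adjusted p = 0.891, limma).

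These values rest on few reads, 49, 52 and 47 in control and 32, 39 and 45 in LKO livers. The exact Poisson 95% interval, which covers counting error only, was 33.8 to 60.4 for control replicate 1 and 26.0 to 53.8 for LKO replicate 1. The intervals of all 6 livers overlapped, and the counting error of a single LKO liver, 14.9% to 17.7% of its value, was larger than the SD of 0.732 among them. The partner chain of xCT is encoded by Slc3a2, and the ratio of Slc7a11 to Slc3a2 was 0.0107, 0.0138 and 0.0134 in control and 0.0115, 0.00924 and 0.00967 in LKO livers. These ratios overlapped between groups (log2 difference −0.31, exact permutation p = 0.2).

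Srxn1 and Txnrd1 serve the thioredoxin and peroxiredoxin system. Sulfiredoxin, from Srxn1 (chromosome 2, 152105516 to 152111376, + strand), repairs over-oxidised peroxiredoxins. Its values were 9786, 9778 and 8634 in control and 8601, 9033 and 7982 in LKO livers. All 3 LKO livers were below the control mean, but control replicate 3 lay among them. The means were 9399 ± 663 and 8538 ± 528 (SD, n = 3 each), a log2 difference of −0.14 (standard error 0.071, 95% confidence interval −0.30 to 0.024, adjusted p = 0.907, limma).

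Thioredoxin reductase 1, from Txnrd1 (chromosome 10, 82833951 to 82897712, + strand), passes electrons from NADPH to thioredoxin. Its values were 12941, 13046 and 12034 in control and 12493, 12086 and 12866 in LKO livers. They varied least of the 10 genes, with a coefficient of variation of 3.52% over the 6 livers. The log2 difference was −0.022 (95% confidence interval −0.15 to 0.11, adjusted p = 0.991, limma), and the ratio of Txnrd1 to thioredoxin (Txn1) was 0.663 to 0.685 in control and 0.623 to 0.684 in LKO livers (exact permutation p = 0.8).

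Nqo1 encodes the quinone reductase most often used as a readout of NRF2 activity. It lies on chromosome 8 (107388225 to 107403206, − strand). Its values were 1497, 1293 and 1415 in control and 1359, 1315 and 1078 in LKO livers. LKO replicate 3 was the lowest of the 6, while the other 2 LKO livers lay inside the control range. The means were 1402 ± 103 and 1251 ± 151 (SD, n = 3 each), a log2 difference of −0.17 (95% confidence interval −0.40 to 0.059, adjusted p = 0.938, limma). Without LKO replicate 3 the mean of the LKO livers was 1337, inside the control range.

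G6pdx encodes glucose-6-phosphate dehydrogenase, the first step of the pentose phosphate pathway and a source of the NADPH that the other enzymes use. It lies on chromosome X (74409483 to 74429194, − strand). It had 1090, 1088 and 1046 in control and 1025, 1182 and 1284 in LKO livers. The LKO livers lay on both sides of the controls, with means of 1075 ± 24.8 and 1164 ± 131 (SD, n = 3 each) and a log2 difference of 0.11 (95% confidence interval −0.093 to 0.31, adjusted p = 0.971, limma). Without LKO replicate 3 the LKO mean was 1103, 2.68% above control, and the log2 difference was 0.035. Without LKO replicate 1 the log2 difference was 0.197 (adjusted p = 0.853, limma).

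Pgd encodes the next NADPH-forming enzyme of that pathway, and the ratio of G6pdx to Pgd was 0.146, 0.150 and 0.165 in control and 0.177, 0.177 and 0.183 in LKO livers. Every LKO liver was above every control liver, a log2 difference of 0.22 (exact permutation p = 0.1, the smallest possible, adjusted p = 0.4 over 6 ratios). Ikbkg, on the opposite strand, shares 13.6% of the exon bases of G6pdx, and its values were close between groups, at 6499 ± 205 and 6351 ± 162 (SD, n = 3 each). G6pdx also has a near-identical copy elsewhere in the genome, G6pd2, not analysed here, and the authors' counting could have left out reads shared with it.

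Hmox1 encodes heme oxygenase-1, which opens the heme ring and frees iron, and which macrophages that clear red cells express strongly. It lies on chromosome 8 (75093621 to 75100589, + strand, ENSMUSG00000005413.8). Its normalized read counts were 4198, 4162 and 3438 in control and 4925, 4612 and 8018 in LKO livers. All LKO livers were above all controls, and LKO replicate 3 was far above the other 2. Relative to the control mean the LKO livers were at 1.25, 1.17 and 2.04. The means were 3933 ± 429 and 5851 ± 1882 (SD, n = 3 each), a log2 difference of 0.53 (standard error 0.19, 95% confidence interval 0.10 to 0.97, unadjusted p = 0.0213, adjusted p = 0.831, limma). Without LKO replicate 3 the log2 difference was 0.28 (adjusted p = 0.867, limma), and the mean of the remaining LKO livers was 4768, 21.2% above control.

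Of 10 other genes of heme and iron handling, 6 had a higher and 4 a lower mean log2 value in LKO. None passed the adjustment (limma), and 1 of the 10 had an unadjusted p under 0.05, against 5.68% of all genes. This was Slc40a1, which encodes the iron exporter ferroportin, at 15859, 13831 and 13852 in control and 20656, 16207 and 16485 in LKO livers. Every LKO liver was above every control liver, and the highest value was in LKO replicate 1, not in replicate 3 (log2 difference 0.29, standard error 0.10, adjusted p = 0.824, limma). Haptoglobin (Hp), which binds free hemoglobin, was 369004 ± 12911 in control and 310656 ± 31596 in LKO livers (SD, n = 3 each, adjusted p = 0.894, limma), with no overlap. Biliverdin reductase B (Blvrb), downstream of Hmox1, was 9258 ± 316 and 10243 ± 965. The ratio of Hmox1 to Blvrb was 0.445, 0.441 and 0.387 in control and 0.539, 0.430 and 0.738 in LKO livers, and it overlapped between groups (log2 difference 0.39, exact permutation p = 0.3).

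Markers of other cells differed between these livers as well, and in whole liver more cells of a type and more RNA per cell cannot be told apart. The sum of 13 macrophage markers was 97526 to 103437 in control and 100289 to 108138 in LKO livers. Lyz2 (26268 to 32961) and Cd5l (22426 to 27752) had the largest values of the 13, so the sum shows little of low genes such as Marco. Within that list, limma gave an unadjusted p under 0.05 to 5 genes with a higher and 1 with a lower mean in LKO, against 5.68% of all genes, and no gene passed the adjustment. Marco, a scavenger receptor of resident macrophages, was 32.6, 87.4 and 23.4 in control and 794, 95.8 and 509 in LKO livers (adjusted p = 0.577, limma). Vsig4, another gene of resident macrophages, was 1296, 2803 and 1504 in control and 3432, 2640 and 5249 in LKO livers (adjusted p = 0.737, limma). Adgre1, which encodes F4/80, was 4567 ± 156 in control and 5057 ± 213 in LKO livers (SD, n = 3 each, adjusted p = 0.840, limma). Other macrophage markers had lower means in LKO. Gpnmb, a marker of lipid-associated macrophages, was 5831 ± 960 in control and 4116 ± 1329 in LKO livers (SD, n = 3 each, adjusted p = 0.842, limma), and Cd9, Trem2, Cd68 and Itgax had means 10.6%, 9.07%, 8.03% and 3.78% lower.

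The 5 neutrophil markers summed to 457 to 854 in control livers and to 475, 969 and 4578 in LKO livers. Of these, S100a8, S100a9, Mpo and Elane were at 6.64 to 10.5 times the control mean in LKO replicate 3. The remaining marker, Cxcr2, was 86.7, 37.3 and 68.2 in control and 33.3, 39.5 and 109.5 in LKO livers. Its mean was lower in LKO, at 60.7 against 64.1. Hmox1 was 4198, 4162 and 3438 in control and 4925, 4612 and 8018 in LKO livers. The part of neutrophils in the Hmox1 values was not tested. Alas2, the only red cell marker measured of the 4 listed, was 7909 ± 1232 in control and 8163 ± 1330 in LKO livers (SD, n = 3 each). The sum of 9 stellate cell markers was 87037 to 91527 in control and 73837 to 87640 in LKO livers, and 3 of the 9 had a lower mean in LKO at an unadjusted p under 0.05 (limma, against 5.68% of all genes), with none higher. These were Acta2, Col1a1 and Col1a2, with means 30.1%, 34.5% and 28.2% lower and no overlap between groups (adjusted p = 0.548 for each). Of 6 endothelial markers, 3 were likewise lower at an unadjusted p under 0.05 and none higher (limma, against 5.68% of all genes). These were Lyve1, Pecam1 and Cdh5, with means 32.1%, 10.8% and 9.55% lower, and the groups overlapped for Lyve1 alone among them (adjusted p of 0.695, 0.818 and 0.824, limma). Cholangiocyte and lymphocyte lists held no gene at an unadjusted p under 0.05. The smallest p there belonged to Cftr, Sox9 and Krt7 (log2 differences −0.12, −0.056 and −0.043) and to Cd3e, Ncr1 and Cd8a (−0.29, 0.25 and −0.19). The part of any of these cells in the values of the 10 genes was not tested.

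**Figure D3:**
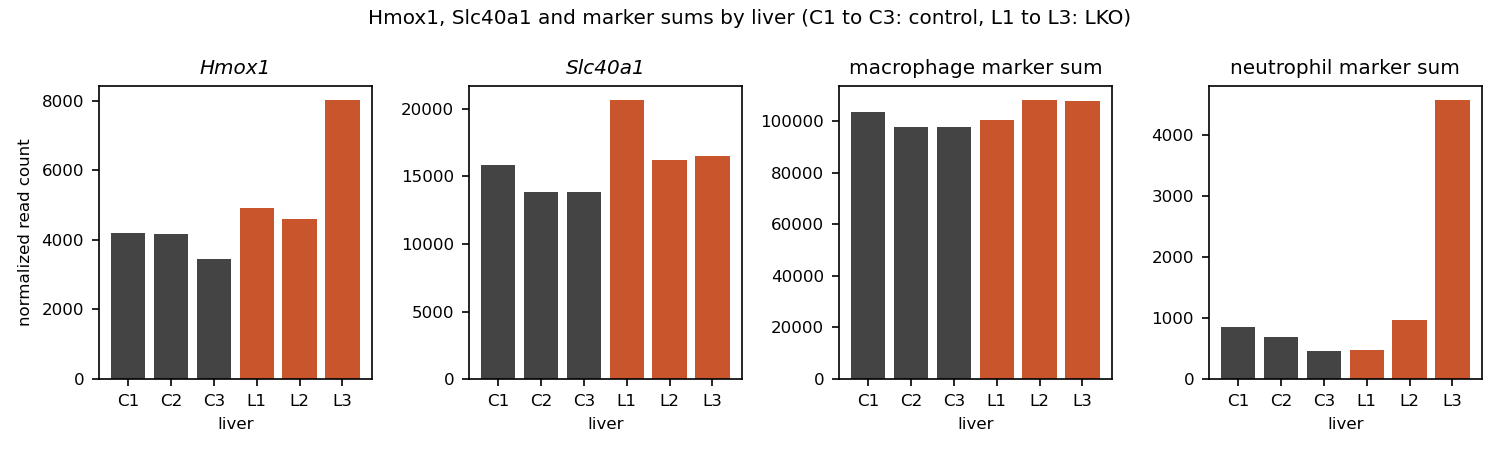
Normalized read counts by liver (C1 to C3 control, L1 to L3 LKO, each axis starting at 0) of Hmox1, Slc40a1, the sum of 13 macrophage markers and the sum of 5 neutrophil markers. Hmox1 (8018) and the neutrophil sum (4578) are both highest in L3, whereas Slc40a1 is highest in L1 (20656). The macrophage sum lies between 97526 and 108138, and Lyz2 and Cd5l have the largest values in it, so it shows little of low genes.

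Per kilobase of exon, which allows genes to be compared with each other, the level over all 6 livers ran from Gclc down to Slc7a11. Gclc was at 6587 normalized reads per kb, 2.07 times Srxn1 at 3180. Srxn1, Nfe2l2 (3032), Hmox1 (2794) and Gclm (2023) followed, and each of these overlapped with its neighbour in the ranges over livers. Txnrd1 (1775) was below Gclm in 6 of 6 livers, although by only 1.14 times. Keap1 (956) and Nqo1 (854) overlapped, G6pdx was at 363, and Slc7a11 at 3.15 was 115 times lower than G6pdx. The exon length used was the union of all annotated exons, which is 13.92 kb for Slc7a11 and 1.55 kb for Nqo1, and long rarely used ends lower the value of a gene.

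**Figure D4:**
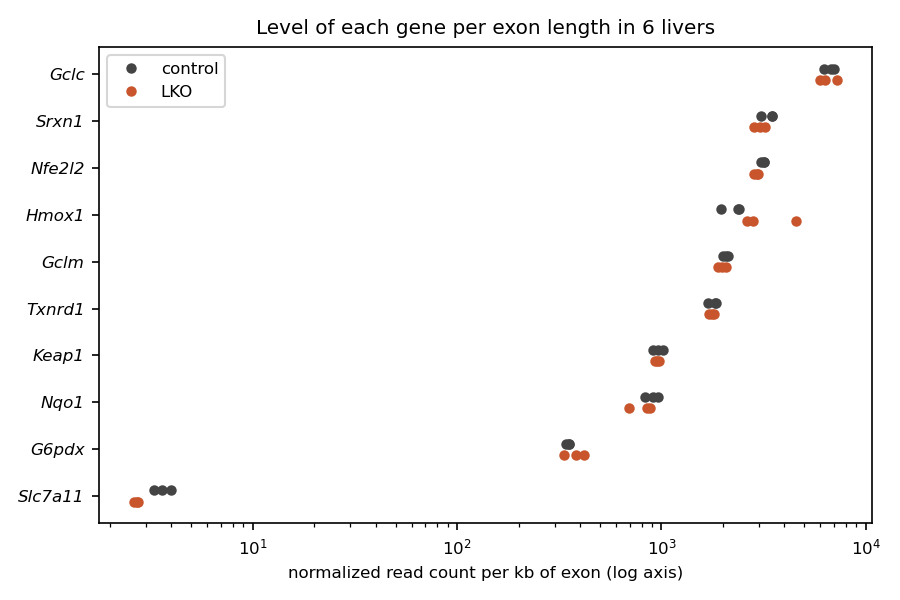
Normalized read count per kb of annotated exon (log axis) of the 10 genes in each control and LKO liver, ordered by the mean over 6 livers. Gclc is highest (6587) and Slc7a11 lowest (3.15), and the spread between livers is widest for Hmox1 (1964 to 4579).

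The livers themselves ranked differently from gene to gene. Of the 10 genes, 8 were below the control mean in LKO replicate 1, 8 in replicate 2 and 6 in replicate 3. The median deviation from the control mean on the log2 scale was −0.045, −0.069 and −0.075 in these livers and between −0.022 and 0.027 in the control livers. LKO replicate 3 held the highest value for Hmox1 and G6pdx and the lowest for Nqo1, Gclc and Srxn1. In LKO replicate 3, Hmox1 deviated by 1.03 and Nqo1 by −0.38 on the log2 scale.

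For the 3 genes with the widest range over the 6 livers, the genes of most like pattern were sought among 12488 genes with a mean value of at least 100. Likeness was the root mean square difference of centred log2 values over 6 livers. For Hmox1 these were Pde5a, Pou2f2 and Fpr2, at differences of 0.113 to 0.143, and no gene came within 0.1. All of them were highest in LKO replicate 3, but they were picked for likeness to Hmox1, so this is no separate result. For Slc7a11 they were 2810002D19Rik, Hoxb2 and Grasp (0.074 to 0.085), but the counting error of Slc7a11 in a liver, 13.9% to 17.7%, is wider than these differences, so the names cannot be told from matches to counting noise. For Nqo1 they were Agt, Gbp9 and Tmsb10 (0.038 to 0.040). For Nqo1 there were 244 genes within 0.1, so the names given are a few of many.

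Genes around the pathway were described with 93 other genes in 8 lists. These include 6 antioxidant enzymes not usually counted as NRF2 targets and the 9 genes of an ATF4 list. None of the 93 passed the adjustment in limma. At an unadjusted p under 0.05, 4 were higher and 4 lower in LKO (8.60% of them, against 5.68% of all genes). The groups did not overlap for 11 (11.8%, against 10.6% of all genes), 5 higher and 6 lower. The median log2 difference over the 93 was 0.016.

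Among 12 regulators of NRF2, 1 was lower at an unadjusted p under 0.05 (limma, against 5.68% of all genes). This was Sqstm1, which encodes p62, a protein that draws KEAP1 into autophagy and is itself an NRF2 target. Its values were 40301, 39436 and 37037 in control and 34368, 36204 and 34133 in LKO livers, with no overlap (log2 difference −0.16, standard error 0.063, adjusted p = 0.851, limma). Mafk, a small MAF partner of NRF2, was 2259 ± 119 and 2002 ± 220, and Btrc, part of a second ligase for NRF2, was 1419 ± 90.0 and 1529 ± 62.3 (SD, n = 3 each). The ranges of both overlapped.

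The 20 other detoxification targets went both ways, with 8 higher, 12 lower and a median of −0.017. Gstp1, a glutathione transferase, was 21806, 24378 and 20419 in control and 27119, 25056 and 29046 in LKO livers (log2 difference 0.29, standard error 0.083, adjusted p = 0.714, limma). Reads of Gstp1 may be shared with near-identical family members. Cbr1, a carbonyl reductase, was 6600, 5656 and 7220 in control and 5352, 5671 and 5115 in LKO livers (log2 difference −0.27, standard error 0.089, adjusted p = 0.824, limma). Gsta1, a glutathione transferase strongly tied to NRF2, was 407 ± 69.3 in control and 315 ± 18.1 in LKO livers (SD, n = 3 each, adjusted p = 0.848, limma), and near-identical Gsta genes may share its reads.

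Of 14 other glutathione genes, Gss, the second enzyme of glutathione synthesis, was lower in every LKO liver. Its values were 10120, 9640 and 9562 in control and 8411, 9323 and 8894 in LKO livers (log2 difference −0.14, standard error 0.057, adjusted p = 0.857, limma). Gpx4, which reduces lipid peroxides, was 20021 ± 1021 and 18405 ± 1375, whereas Gpx1 was 111427 ± 2766 and 120563 ± 4972 (SD, n = 3 each). For Gpx1 all LKO livers were above all controls (adjusted p = 0.964, limma).

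The 13 thioredoxin genes and the 9 other NADPH genes held 0 genes at an unadjusted p under 0.05 (limma, against 5.68% of all genes). Their median log2 differences were −0.016 and −0.040. In the thioredoxin list the smallest p belonged to Txnrd3, Txnrd2 and Txnip, with log2 differences of 0.18, −0.11 and −0.11 (adjusted p = 0.951 or higher, limma). Among the NADPH genes they belonged to H6pd, Pgd and Rpia (0.11, −0.11 and −0.19, adjusted p from 0.946 to 0.971, limma). Among 6 antioxidant enzymes outside the usual NRF2 targets, Msrb1, which repairs oxidised methionine, was 19212 ± 330 in control and 22087 ± 1722 in LKO livers (SD, n = 3 each), with no overlap (adjusted p = 0.824, limma). Sod3 was 7122 ± 668 and 6374 ± 480, and catalase (Cat) was 196832 ± 1753 and 218513 ± 23958.

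The 9 genes of the ATF4 list, which share a regulator with Slc7a11, had a median of 0.047. Trib3, an ATF4 target, was 757, 614 and 617 in control and 1150, 1025 and 653 in LKO livers (log2 difference 0.47, standard error 0.19, adjusted p = 0.859, limma). Atf4 itself was 5889 ± 232 and 6258 ± 273, and Ddit4 was 972 ± 157 and 834 ± 114 (SD, n = 3 each). Of the 9 genes, 6 had a higher and 3 a lower mean log2 value in LKO. Trib3 and Atf4 were among the higher and Ddit4 was among the lower, and the mean of Slc7a11 was also lower. Neither Slc7a11 nor any of the 9 passed the adjustment, and the part of ATF4 in the Slc7a11 values was not tested.

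**Figure D5:**
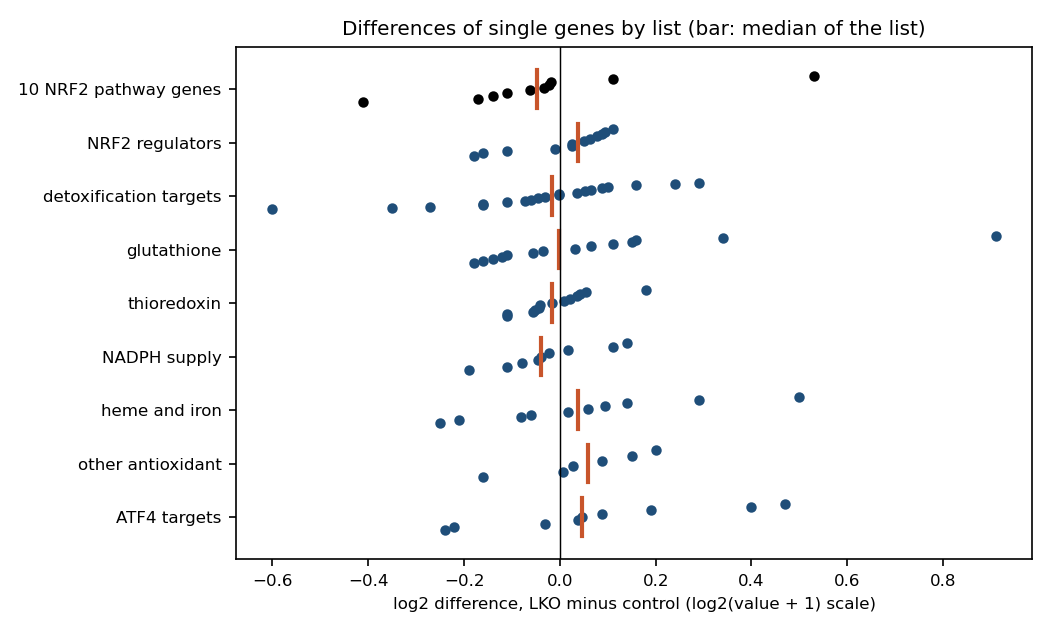
Log2 difference between LKO and control on the log2(value + 1) scale (horizontal axis) of each gene, by list, with a bar for the median of the list. Medians lie between −0.047 for the 10 NRF2 pathway genes and 0.058 for other antioxidant enzymes, and single genes spread to both sides of 0 in every list.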

How the data were processed

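Libraries of 6 livers were made with the TruSeq RNA kit, which does not mark strand. The submitters' processing notes name FastQC, STAR, HTSeq, DESeq2 and the build mm10 (versions and annotation not given in the sources used here). The deposited signal is a gene's read count scaled by the size factor of its liver. Columns named WT and KO with a number were matched to the control and LKO samples of that number. All values (100%) were whole multiples, within 0.01, of the value of 1 read, so reads were recovered for count tests.

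limma (version 3.58.1, R 4.3.3) modelled log2(value + 1) with a mean-variance trend and no covariates. The 17297 genes tested reached a value of 1 in 3 or more livers, with Benjamini-Hochberg adjusted p-values and a threshold of 0.05. Fold changes on this scale understate those of low genes. Ratios were compared by exact permutation tests (SciPy 1.17.1). Alternatives were another pseudocount, other filters, the replicate number as a block, TMM scaling, edgeR (version 4.0.16), DESeq2 (version 1.42.0) and each liver left out. The code was tested on simulated data. Gene positions and exon lengths came from GENCODE M21 (GRCm38).

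The 10 genes and all lists were chosen with earlier results of these data known. All members are named, and from each other list the 3 genes of smallest p where none passed the threshold. S100a8, Cxcr2, Gpnmb, Cd9, Trem2, Cd68, Itgax, Lyz2, Cd5l, Ikbkg and Paqr9 are named beyond this rule, after their values were seen. Genes of most like pattern were sought for the 3 members of widest range. Slc7a11 rested on 32 to 52 reads a liver, the other genes on at least 861. The markers Ly6g, Hba-a1, Hbb-bs and Hbb-bt were not analysed here.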

Additional observations from a re-analysis of the deposited data

How the results depend on the processing

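No alternative put any of the 10 genes, or any of the 93 other genes in the 8 lists, past an adjusted p of 0.05. Directions reversed only for genes near 0 when a liver was left out: the log2 difference of Keap1 ranged from −0.057 to 0.021, that of Gclc from −0.112 to 0.027 (0.002 without control replicate 3) and that of Txnrd1 from −0.058 to 0.001. Hmox1 ranged from 0.28 without LKO replicate 3 to 0.68 without LKO replicate 2 (adjusted p from 0.309 over all alternatives), and Slc7a11 from −0.48 to −0.35. The unadjusted p of Hmox1 was under 0.05 in every alternative but the one without control replicate 3. Other members were under 0.05 in some alternatives. These were Slc7a11 with at least 10 reads in every liver, Nfe2l2 with TMM scaling, and Nfe2l2 and G6pdx without LKO replicate 1. Srxn1 was so without control replicate 3 and without LKO replicate 2. Over all genes the count past the threshold was 1, and it was 2 without a filter on low values, 84 with DESeq2 and 0 to 13 with a liver left out (13 without LKO replicate 2). The livers share replicate numbers, but deviations of same-numbered livers correlated at −0.058, −0.019 and −0.107 across genes, so the numbers do not show a pairing. With the replicate block the count over all genes was 0 (limma), with 912 genes at an unadjusted p under 0.05. Without the block, limma gave 1 gene past the threshold and 983 at an unadjusted p under 0.05, and edgeR gave 1 and 858. Under the block no call among the 10 genes changed. Counting error was 13.9% to 17.7% a liver for Slc7a11, the member with fewest reads, and also bears on small differences of other members: for G6pdx it was 2.92% to 3.19% in control livers, whose SD was 24.8 around 1075.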
